A study of Mus musculus with 30 samples.

Results

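Integrin subunits and laminin chains were measured on 30 two-channel arrays of mammary carcinomas from mice that carry a Myc transgene. The members were chosen by name: every probe with 1 gene symbol that names an integrin alpha subunit, an integrin beta subunit or a laminin chain, with a value on at least 20 of the 30 arrays. They came to 33 probes of 30 genes, out of 18923 probes of 13422 named genes with that many values. Integrin alpha subunits gave 15 probes of 13 genes, integrin beta subunits 7 probes of 7 genes, and laminin chains 11 probes of 10 genes. A further 4 probes were measured on too few arrays, namely Itgae (19 arrays), Itga9 (15), 1 of the Lama1 probes (19) and 1 of the Lama3 probes (14), so Itgae and Itga9 are not analysed here. Itgb8, Itga10, Itga11 and Itgad were not listed in the probe annotation and are not analysed here. A stricter rule, values on at least 24 arrays and in every extract, was met by 21 of the 33 probes.

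There were 15 RNA extracts, each co-hybridised in either channel (2 arrays per extract) with a reference RNA shared by all arrays, whose origin the sources used here do not give. All extracts come from Myc transgenic mice; the promoter of the transgene, strain, age, treatment and any wild-type tissue are not given there either. Extract codes hold 10 numbers (579 on 5 extracts, 546 on 2), whose meaning the labels leave unstated. The labels place 25 arrays under the conversion of epithelial cells to mesenchymal ones and 5 under tumour progression: 550-A and 561-B carry the second theme on both arrays, 12 extracts the first on both, and 595-A carries both. Because nothing says that extracts came from separate animals, p-values describe the spread among these extracts alone, some of it possibly technical.

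Integrins are receptors built from 1 alpha and 1 beta subunit that hold a cell to its surroundings. The beta1 subunit pairs with many alpha subunits, alphaV with several beta subunits, and the beta2 and beta7 subunits serve leukocytes. Laminins are trimers of an alpha, a beta and a gamma chain and form the network of the basement membrane, the sheet under epithelia. In the mammary gland laminin-332, which contains the Lama3 and Lamb3 chains, is bound by alpha3beta1 and by alpha6beta4, the receptor of hemidesmosomes, which anchor epithelial cells to that sheet.

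Values are log2 ratios between an extract and the reference, turned to 1 orientation and averaged over both arrays of an extract. The labels name neither the dyes nor the numerator, so the direction rests on Myc: its probe was positive in all 15 extracts, from 2.38 to 3.68 (median 3.07), and the positive side is called the Myc side. It is likely the side on which the carcinoma exceeded the reference, because the tumours carry the transgene, but this is not settled. Higher below means farther to the Myc side. Arrays held from 13434 to 21991 values, with the fewest in 546-A and 548-A. Of the members, 12 were on 1 array and 8 on none in 546-A, and 6 and 5 in 548-A. In tissue RNA, fewer cells of a type and less RNA per cell cannot be told apart. Cell type markers were read against the same reference: 16 of 17 luminal and epithelial markers passed on the Myc side, where 23.0% of all probes did. Of the fibroblast and mesenchymal markers, 15 of 18 passed opposite to Myc, where 13.6% of all probes did. Because the origin of the reference is not given, these counts describe a difference from it and cannot identify the tissue.

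Against the reference, the laminin chains Lama3, Lama4, Lama5 and Lamb3 and the hemidesmosome receptor subunits Itga6 and Itgb4 lay on the Myc side. The widely used subunits Itgb1 and Itgav and the shared laminin chains Lamb2 and Lamc1 lay opposite to them. In limma's test of the extract means against 0, with adjusted p-values under 0.05 as the limit, 22 of 33 member probes passed (66.7%), where 36.6% of all probes tested did. The Myc side held 12 of them, against 23.0% of all probes, the opposite side 10, against 13.6%, and the other 11 members did not pass. The median over the members was 0.00 and that over all probes 0.10. Every measured extract lay on 1 side for 7 members, where 9.63% of all probes met that: Itga1, Itga6, Itgb4, Lama4 and Lama5 toward Myc, and Itgb7 and Lamb2 away from it. Subtracting each array's median moved the median of all probes down by 0.11, to -0.01, and the Myc side then held 10 members and the opposite side 12. The Myc side's share of all probes that passed went from 62.9% to 51.3% with that step, and was 35.7% with the extract in channel 1 only and 78.8% in channel 2 only.

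**Figure D1:**
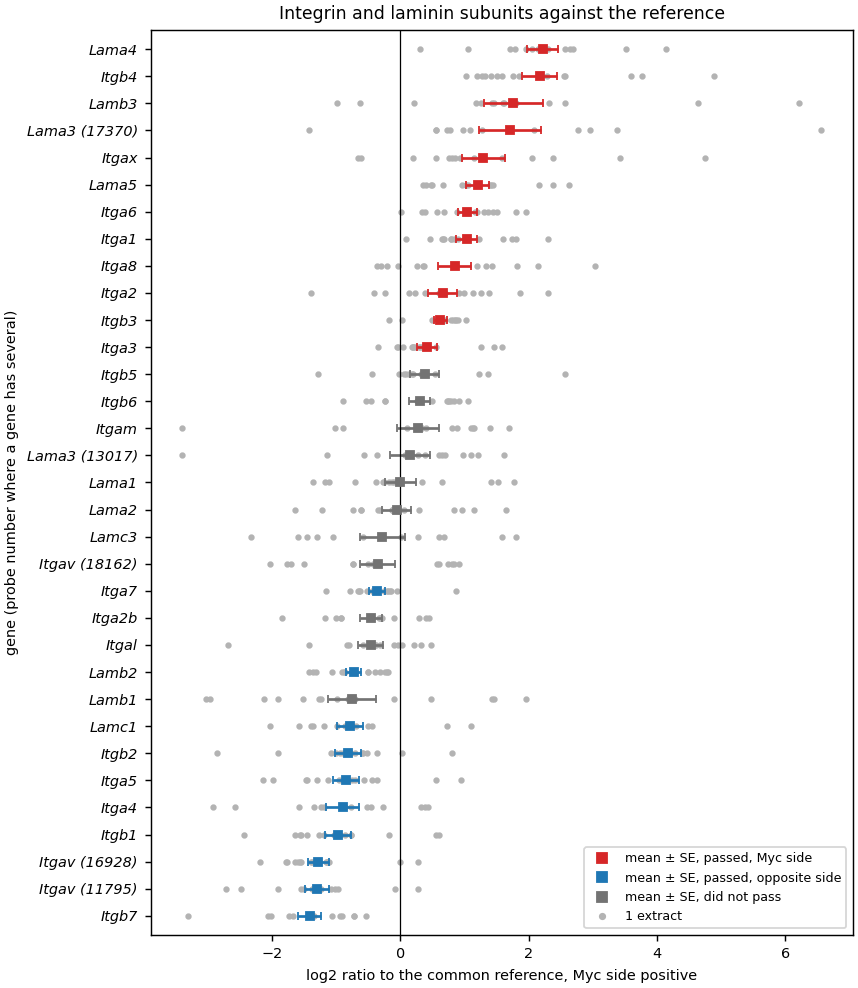
Mean log2 ratio to the common reference for each of the 33 member probes (horizontal axis, Myc side positive), with limma's standard error as bars and 1 grey point per extract; colours mark the 12 probes that passed toward Myc, the 10 that passed away from it and the 11 others. Lama4 and Itgb4 stand highest, with every measured extract above 0, and Itgb7 stands lowest, with every extract below 0.

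Of the receptor subunits for laminin, Itgb4, the beta subunit of hemidesmosomes, stood highest. Its log2 ratio ran from 1.03 in 579-A over a median of 1.76 to 4.89 in 550-A. All 15 extracts lay on the Myc side, and 550-A, 540-B (3.77) and 546-A (3.60) stood above the rest. The level of Itgb4 depended on the orientation, at 1.47 in channel 1 and 2.88 in channel 2, and paired arrays differed by a median of 1.73. In the F-test between extracts, described below, Itgb4 did not pass (adjusted p from limma's shrinkage 0.37). Its mean was 2.17 ± 0.27 (limma's standard error, n = 15), a 4.51-fold ratio, folds being given as sizes on either side (limma adjusted p = 7.88e-06). Itga6, its alpha partner, ran from 0.014 in 579-D over a median of 1.16 to 1.97 in 595-A. Its 15 extracts were also on the Myc side, though 579-D sat at the reference level, and the mean was 1.05 ± 0.15 (2.06-fold, limma adjusted p = 2.78e-05). Itga3, the other alpha subunit that binds laminin-332, ran from -0.34 in 548-A over a median of 0.23 to 1.58 in 546-A. High values of Itga3 were limited to 546-A, 550-A (1.47) and 540-B (1.27), with the other 12 extracts between -0.34 and 0.55. Its mean of 0.42 ± 0.15 passed (limma adjusted p = 0.038), but not without 540-B, 546-A, 546-B, 550-A or 579-B, where limma's adjusted p reached up to 0.0798, nor with array medians subtracted (0.31, limma adjusted p = 0.13) or 1 value per code number (0.44, limma adjusted p = 0.106). Itga7, a laminin receptor subunit of muscle, ran from -1.16 in 548-A over a median of -0.39 to 0.87 in 546-A, with 14 of 15 extracts on the opposite side. Its mean of -0.36 ± 0.13 passed (limma adjusted p = 0.0337) but not without 547-A, 548-A, 561-B, 567-B, 579-A, 579-D or 579-F, where limma's adjusted p reached up to 0.0636, nor with 1 value per code number (limma adjusted p = 0.0563), and it was -0.82 in channel 1 against 0.05 in channel 2.

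The laminin-332 chains Lama3 and Lamb3 lay on the Myc side. Lama3 (probe 17370) ran from -1.42 in 579-F (on 1 array) over a median of 1.08 to 6.55 in 550-A. Lamb3 ran from -0.98 in 579-D over a median of 1.53 to 6.22 in 550-A (on 1 array). Both chains were highest in 550-A and next in 540-B, at 3.38 for Lama3 and 4.64 for Lamb3, and neither had a value in 548-A. The mean of Lama3 was 1.72 ± 0.49 (n = 13, 3.28-fold, limma adjusted p = 0.0112) and that of Lamb3 1.77 ± 0.46 (n = 14, 3.40-fold, limma adjusted p = 0.00604). The other Lama3 probe (13017) gave 0.16 ± 0.31 (n = 14) and did not pass, and its paired arrays had opposite signs, -0.77 in channel 1 and 1.33 in channel 2. The gene's probes therefore disagree, and the first stands for it because it was measured on more arrays, 25 against 24.

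Among the other laminin alpha chains, Lama4 and Lama5 lay on the Myc side. Lama4, the alpha chain of vessel laminins, ran from 0.32 in 579-F over a median of 2.16 to 4.14 in 540-B. It was on the Myc side in all 14 extracts with a value, at 2.22 ± 0.24 (4.66-fold, limma adjusted p = 2.12e-06), though its paired arrays differed by a median of 1.58 and did not order the extracts alike (r = -0.08). Beside it, 9 of 11 endothelial markers passed on the Myc side, where 23.0% of all probes did. Their means per extract ran from -0.20 in 548-A to 1.62 in 540-B, the extract where Lama4 was highest. The part of these markers in the result was not tested. Lama5, the alpha chain of most epithelial basement membranes, ran from 0.36 in 548-A over a median of 1.06 to 2.63 in 546-A, with 561-B (2.37) and 550-A (2.17) next. All 15 extracts lay on the Myc side, at 1.21 ± 0.18 (2.31-fold, limma adjusted p = 5.33e-05). Lama1 (0.00 ± 0.24) and Lama2 (-0.05 ± 0.22), the chain of muscle basement membrane, did not pass.

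Lamb2 and Lamc1, chains that trimerise with these alpha chains, lay on the opposite side. Lamb2 ran from -1.41 in 579-D over a median of -0.72 to -0.20 in 579-F and was on the opposite side in all 15 extracts, at -0.72 ± 0.12 (a 1.65-fold ratio, limma adjusted p = 0.00015). Its level depended on the orientation, at -1.25 in channel 1 and -0.16 in channel 2. Lamc1, the gamma chain of most laminins, ran from -2.03 in 579-D over a median of -0.83 to 1.10 in 546-A. It was on the opposite side in 13 of 15 extracts, the exceptions being 546-A and 550-A (0.74), with a mean of -0.77 ± 0.20 (limma adjusted p = 0.00575). Lamb1 had a mean of -0.75 ± 0.37 that did not pass (limma adjusted p = 0.129), but did without 579-E (-0.95, limma adjusted p = 0.0439). Lamc3, measured in 12 extracts on 20 arrays, ran from -2.32 in 540-B over a median of -0.29 to 1.81 in 550-A (on 1 array) and did not pass (-0.28 ± 0.35).

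Itgb1, Itga5 and Itgav, subunits of the receptors for fibronectin and vitronectin, lay on the opposite side. Itgb1, the common beta subunit, ran from -2.43 in 579-D over a median of -1.03 to 0.61 in 550-A. Only 550-A and 546-A (0.57) lay on the Myc side, and the mean was -0.96 ± 0.20 (1.95-fold, limma adjusted p = 0.00113). Itga5, which with Itgb1 forms the main fibronectin receptor, ran from -2.14 in 548-A over a median of -0.85 to 0.94 in 546-A. Its mean was -0.84 ± 0.21 (1.79-fold, limma adjusted p = 0.00387), with the same 546-A and 550-A (0.55) as its only extracts on the Myc side. Itgav, the alpha subunit of vitronectin receptors, had 3 probes. Probe 11795 ran from -2.72 in 579-D over a median of -1.27 to 0.28 in 546-A, with a mean of -1.30 ± 0.19 (2.46-fold, limma adjusted p = 4.19e-05). Probe 16928 gave -1.27 ± 0.17 (2.42-fold, limma adjusted p = 1.18e-05), and probe 18162, over 50% of whose values were ratios of small whole numbers, gave -0.35 ± 0.27 and did not pass.

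Itgb3, a beta partner of Itgav and part of a receptor of platelets, vessels and osteoclasts, lay on the other side from it. Itgb3 ran from -0.17 in 548-A over a median of 0.68 to 1.03 in 595-A with 14 of 15 extracts on the Myc side, at 0.63 ± 0.10 (1.54-fold, limma adjusted p = 0.000106). Itgb5 (0.38 ± 0.23, n = 14) and Itgb6 (0.30 ± 0.16), an epithelial subunit, did not pass. Both changed sign between orientations, from 0.97 in channel 1 to -0.23 in channel 2 for Itgb5 and from 0.66 to -0.06 for Itgb6.

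Itga1, Itga2 and Itga8, other partners of Itgb1, lay on the Myc side. Itga1, a collagen receptor subunit, ran from 0.087 in 595-A over a median of 0.81 to 2.30 in 547-A, on the Myc side in all 14 extracts with a value (1.04 ± 0.16, 2.05-fold, limma adjusted p = 0.000109). That mean came mainly from 1 orientation, with 0.16 in channel 1 and 1.63 in channel 2, and channel 1 alone did not pass (limma adjusted p = 0.712). Itga2, the collagen receptor subunit of epithelia and platelets, ran from -1.39 in 579-D over a median of 0.70 to 2.30 in 550-A. It passed at 0.66 ± 0.23 (limma adjusted p = 0.0313), but its orientations had opposite signs (-0.65 in channel 1, 1.96 in channel 2) and its paired arrays differed by a median of 3.44, the most of any member. It did not pass without 540-B, 550-A, 567-B, 579-B, 579-E, 579-F or 595-A, where limma's adjusted p reached up to 0.0658, nor with array medians subtracted (0.54, limma adjusted p = 0.091). Itga8, a subunit of smooth muscle and mesenchyme, ran from -0.37 in 579-B over a median of 0.62 to 3.03 in 567-B. It was on the Myc side in 10 of 14 extracts, at 0.85 ± 0.26 (limma adjusted p = 0.0156), with 595-A (2.15) and 546-B (1.83) after 567-B.

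Of 6 leukocyte integrins, 3 passed opposite to Myc, where 13.6% of all probes did, 1 passed on its side, where 23.0% did, and 2 did not pass. Itgax, the alpha subunit of dendritic cells and some macrophages, ran from -0.65 in 547-A over a median of 0.94 to 4.76 in 546-A (on 1 array), with 540-B (3.43) next. Its mean was 1.30 ± 0.34 (2.46-fold, limma adjusted p = 0.00613). Itgb2, the beta subunit that Itgax, Itgam and Itgal need, lay on the other side, from -2.85 in 548-A over a median of -0.76 to 0.81 in 561-B, with a mean of -0.81 ± 0.20 (limma adjusted p = 0.00434). Itgam, a macrophage and neutrophil subunit, ran from -3.39 in 579-F (on 1 array) over a median of 0.60 to 1.70 in 579-A and did not pass (0.28 ± 0.33, n = 14). Itgal, the lymphocyte partner of Itgb2, did not pass at -0.46 ± 0.20 (limma adjusted p = 0.0786), but did without 579-F (-0.53, limma adjusted p = 0.0491) and with array medians subtracted (-0.57, limma adjusted p = 0.0148).

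Itgb7, a subunit of lymphocytes that home to mucosa, was the lowest member. It ran from -3.31 in 548-A over a median of -1.36 to -0.53 in 579-E, with all 15 extracts on the opposite side (-1.41 ± 0.18, a 2.66-fold ratio, limma adjusted p = 8.72e-06). Itga4, its partner, ran from -2.92 in 547-A (on 1 array) over a median of -0.81 to 0.44 in 595-A, at -0.89 ± 0.26 (n = 14, limma adjusted p = 0.0113). Beside these, lymphocyte markers passed for 6 of 16 opposite to Myc, where 13.6% of all probes did, and for 1 on its side, where 23.0% did. Their means per extract ran from -1.05 in 548-A to 0.18 in 546-A. Macrophage and myeloid markers passed for 10 of 20 toward Myc and for 3 away from it, against the same 23.0% and 13.6%. Their means ran from -0.31 in 579-D to 1.34 in 546-A, and the pan-leukocyte Ptprc stood at -2.40 ± 0.16. The part of these markers in the values of the leukocyte integrins was not tested. Itga2b, the platelet alpha subunit, did not pass at -0.45 ± 0.17 (n = 14, limma adjusted p = 0.0507). It passed without 546-A, in which it has no value, and without 561-B, 579-A or 579-B, where limma's adjusted p was as low as 0.0287, and with array medians subtracted (-0.55, limma adjusted p = 0.0145). Of the platelet markers, 5 were measured and did not pass (median -0.08).

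**Figure D2:**
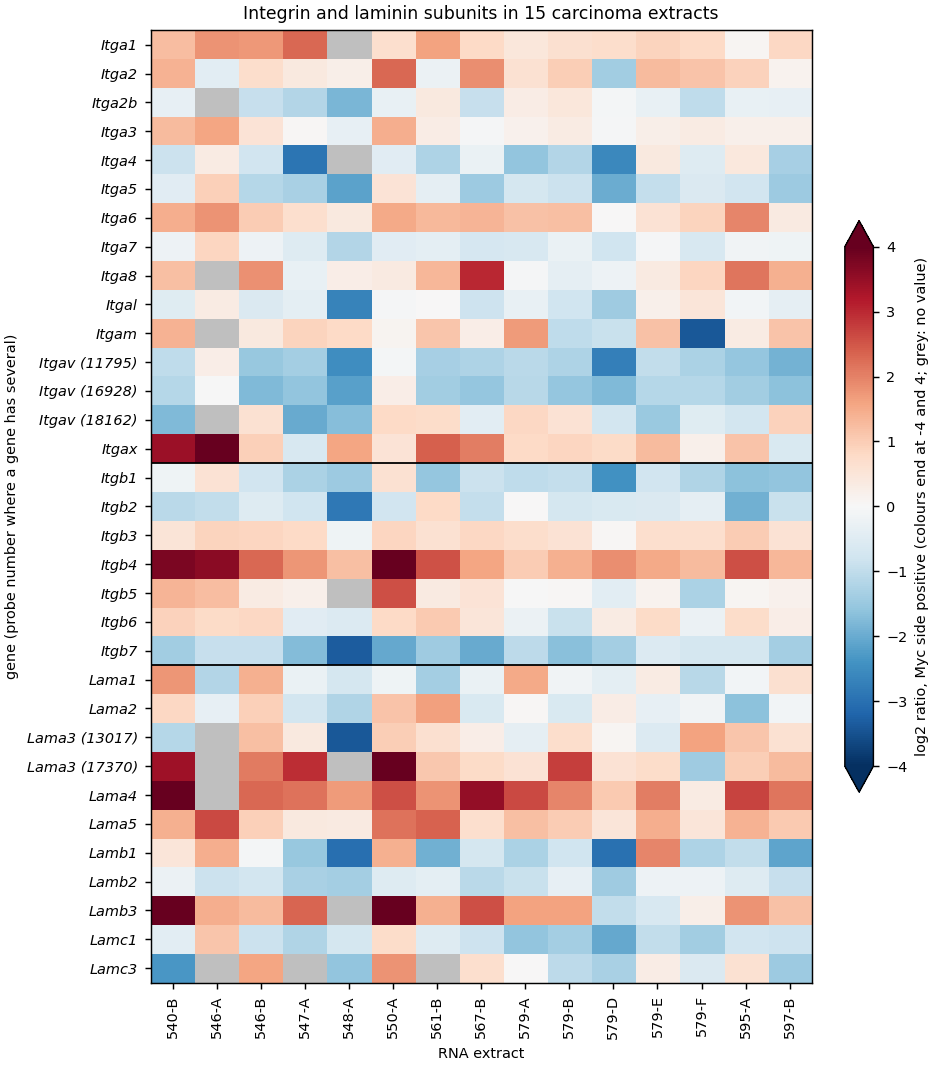
Log2 ratio of each member probe (vertical axis) in each of the 15 extracts (horizontal axis), red on the Myc side and blue on the opposite side, grey where an extract has no value; black lines separate integrin alpha subunits, integrin beta subunits and laminin chains. 550-A and 546-A hold the highest value of 15 of the 33 probes and 548-A and 579-D the lowest value of 19. The matching shares over all probes were not counted, so these counts are not particular to the members. The median over all probes was -0.24 in 548-A, -0.23 in 579-D, -0.20 in 550-A and 0.19 in 546-A.

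Extracts differed from each other in a few members by more than the paired arrays of 1 RNA did. In a moderated F-test on the 30 arrays (limma's variance shrinkage, a dye term for each probe), 5 of 33 member probes passed, where 2.71% of all probes did. They were Lamb1 (F = 15.6, adjusted p from limma 0.00022), Itgb1 (F = 14.2, 0.000398), Itgav probe 11795 (F = 9.72, 0.00293), Itga5 (F = 6.04, 0.0243) and Lama3 probe 17370 (F = 6.998, 0.0301). Leaving out 1 array at a time gave 3 to 6 members. Lamb1, Itgb1 and Itgav passed each time. Itga5 did not pass without either array of 550-A or without the channel 2 array of 546-A. Lama3 did not pass without either array of 546-B, 550-A, 579-A, 579-D, 579-E or 597-B, or without the channel 2 array of 579-B. Without 546-A and 548-A altogether 3 members passed, Itgb1, Lama3 and Lamb1. With array medians subtracted, Itga5 and probe 11795 of Itgav did not pass (adjusted p from limma's shrinkage 0.097 and 0.0757), while probe 16928 of Itgav and Lamb3 did. Without the dye term Lama3 did not pass (0.189 by the same test).

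**Figure D3:**
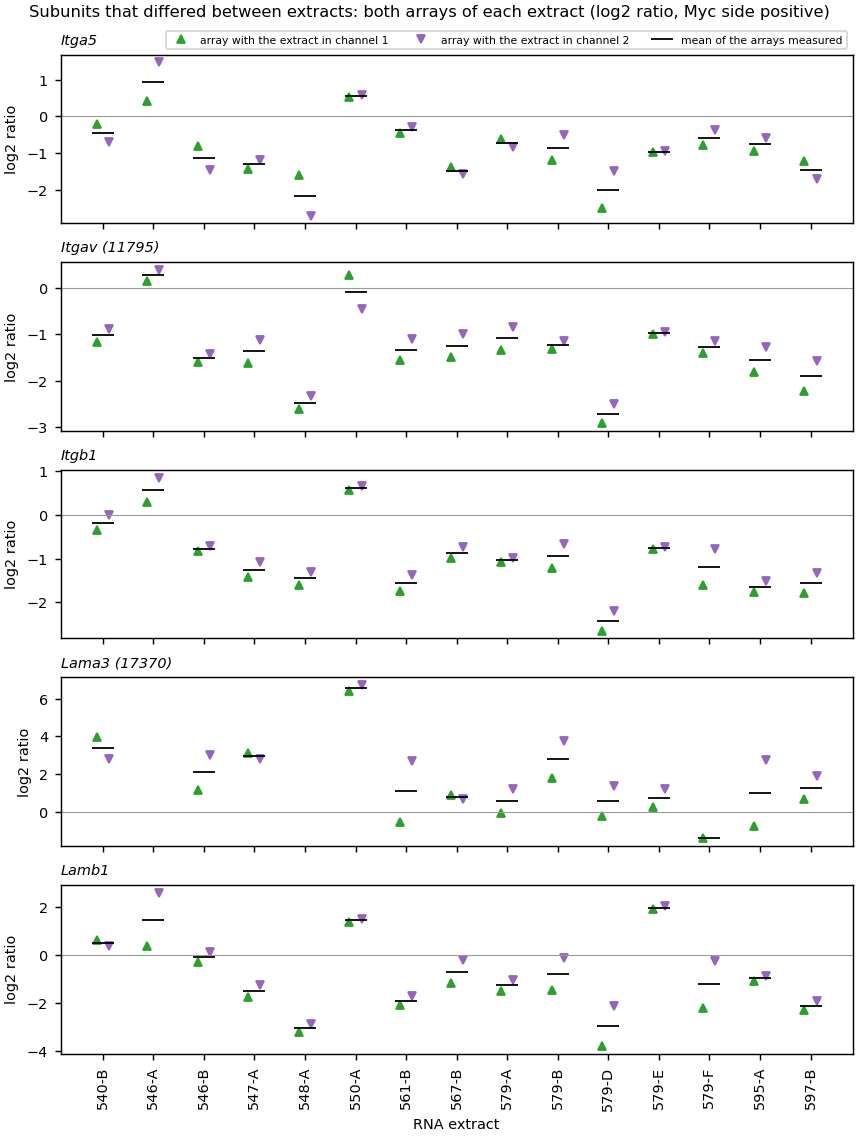
Log2 ratio on each array (vertical axis, Myc side positive) of the 5 probes that differed between extracts, for 15 extracts (horizontal axis); triangles are the arrays with the extract in channel 1 (pointing up) or channel 2 (pointing down) and bars their mean. For Itgb1 the paired arrays lie close together, while extracts range from -2.43 in 579-D to 0.61 in 550-A.

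Lamb1, the beta chain shared by several laminins, had the largest F of the members and an SD of 1.55 over extracts. Its extracts ran from -3.03 in 548-A and -2.97 in 579-D over a median of -0.98 to 1.96 in 579-E. Besides 579-E, 546-A (1.47), 550-A (1.43) and 540-B (0.48) lay on the Myc side, and the other 11 extracts lay on the opposite side. Extracts that share the number 579 were among both the lowest and the highest. Paired arrays of Lamb1 differed by a median of 0.40 and correlated over extracts at r = 0.89, those of Itgb1 by 0.34 at r = 0.97, and those of Itgav probe 11795 by 0.41 at r = 0.93. For Lama3, 550-A stood apart, with 6.39 and 6.71 on its arrays, and without its channel 1 array the adjusted p from limma's shrinkage was 0.174.

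High and low extracts recurred across Itgb1, Itgav and Itga5. Extract 579-D was lowest for Itgb1 and for probe 11795 of Itgav and next to lowest for Itga5 (-1.98), while 546-A or 550-A was highest for each. Probe 16928 of Itgav was also highest in 550-A (0.27) but lowest in 548-A (-2.18), with 546-B at -1.78 and 579-D at -1.77. In 548-A, Itga5 (-2.14) and probe 11795 of Itgav (-2.48) were again low. The fibroblast and mesenchymal markers moved alongside: their means per extract ran from -3.00 in 579-D and -2.66 in 548-A to -0.46 in 546-A and -0.31 in 550-A. Of these markers, 8 of 18 differed between extracts by the F-test, where 2.71% of all probes did. Fibroblast markers were not alone in this. Macrophage and myeloid markers (-0.31 in 579-D to 1.34 in 546-A) and lymphocyte markers (-1.05 in 548-A to 0.18 in 546-A) had extremes among the same extracts. The luminal markers instead ran from 2.10 in 579-F to 3.38 in 561-B. The part of these cell type markers in the results for the integrins was not tested.

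The 250 bases before the start of Itga5, Itgav, Itgb1 and Lamb1 are shown because these 4 genes differed between extracts; they come from RefSeq (GRCm38.p6), which held an entry for 19 of the member genes. Capitals mark GGGCGG, the GC box, read on either strand, so that CCGCCC marks the other strand. The window of Itga5 is chr15:103366792-103367041 on the minus strand, that of Itgav chr2:83724147-83724396 on the plus strand, that of Itgb1 chr8:128685404-128685653 on the plus strand and that of Lamb1 chr12:31265043-31265292 on the plus strand.
Itga5: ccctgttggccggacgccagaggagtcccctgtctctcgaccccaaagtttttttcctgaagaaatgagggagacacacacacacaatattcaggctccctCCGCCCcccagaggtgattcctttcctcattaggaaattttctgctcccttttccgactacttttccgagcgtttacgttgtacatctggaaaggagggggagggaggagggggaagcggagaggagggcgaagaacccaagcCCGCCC
Itgav: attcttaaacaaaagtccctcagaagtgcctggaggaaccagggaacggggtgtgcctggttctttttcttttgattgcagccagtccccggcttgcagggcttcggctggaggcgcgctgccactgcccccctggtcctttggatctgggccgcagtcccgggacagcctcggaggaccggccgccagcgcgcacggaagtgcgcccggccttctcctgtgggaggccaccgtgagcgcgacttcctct
Itgb1: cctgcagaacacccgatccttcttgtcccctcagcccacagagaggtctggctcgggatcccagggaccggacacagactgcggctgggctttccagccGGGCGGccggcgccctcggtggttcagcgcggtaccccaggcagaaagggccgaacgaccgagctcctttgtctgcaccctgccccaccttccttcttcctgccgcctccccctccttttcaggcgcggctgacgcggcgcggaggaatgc
Lamb1: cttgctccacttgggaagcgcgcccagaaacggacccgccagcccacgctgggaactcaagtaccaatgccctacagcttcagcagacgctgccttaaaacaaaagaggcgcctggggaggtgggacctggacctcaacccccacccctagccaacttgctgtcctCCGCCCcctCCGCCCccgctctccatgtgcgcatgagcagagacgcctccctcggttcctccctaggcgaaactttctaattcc
The windows of Itga5 and Lamb1 hold 2 GC boxes each, that of Itgb1 holds 1 and that of Itgav 0, and 32.7% of all 32851 windows of that length hold at least 1. None of the 4 holds CACGTG, the E-box that Myc and Max bind, TGANTCA, the AP-1 element, or TATAAA, on either strand; of all windows 6.02%, 6.75% and 12.4% hold them. Their GC content was 55.6% for Itga5, 64.4% for Itgav, 68.0% for Itgb1 and 62.0% for Lamb1, where the median over all windows was 52.4%. A match or its absence here describes only these letters.

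Subunits that form 1 receptor or 1 laminin were compared over extracts, for 25 pairs with both genes measured of 30 pairs listed. By Pearson's r, 5 pairs passed a two-sided permutation test with 100000 resamples, adjusted over the 25 pairs. By Spearman's rho 0 passed, with 6 at an unadjusted permutation p under 0.05. Itga3 and Itgb1 gave r = 0.86 (adjusted permutation p = 0.0025) and rho = 0.66 (adjusted permutation p = 0.0947). Itga5 and Itgb1 gave r = 0.79 (0.00581) and rho = 0.51 (0.147), and Itgav and Itgb3 gave r = 0.69 (0.0302) and rho = 0.33 (0.331), all by permutation. Among laminins, Lama3 and Lamb3 gave r = 0.82 over 13 extracts (0.00581) and rho = 0.70 (0.0947), and Lama5 and Lamc1 gave r = 0.77 (0.00581) and rho = 0.59 (0.109), again by permutation.

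These correlations were lower without the farthest extracts. That step also narrows the range, which lowers r by itself, so it cannot show how far they rested on a few extracts. Without the 2 extracts farthest from the median of the first gene, r was 0.65 for Itga3 and Itgb1, 0.49 for Itga5 and Itgb1, 0.58 for Itgav and Itgb3, 0.64 for Lama3 and Lamb3 and 0.68 for Lama5 and Lamc1, and 0 of the 25 pairs passed. Leaving out 546-A and 548-A gave r = 0.82 for Itga3 and Itgb1 and 0.73 for Itga5 and Itgb1. It gave 0.59 for Itgav and Itgb3 and 0.73 for Lama5 and Lamc1, while Lama3 had no value in either extract. With 1 value per code number, extracts sharing a number count once. Itga3 with Itgb1 (r = 0.88) and Lama3 with Lamb3 (r = 0.89) then still passed. Itga5 with Itgb1 (r = 0.72), Itgav with Itgb3 (r = 0.67) and Lama5 with Lamc1 (r = 0.69) did not. The high end was held by 550-A with 546-A or 540-B, and the low end of the integrin pairs by 579-D and 548-A. With the first gene read from the channel 1 arrays and the second from the channel 2 arrays, so that no array is shared, r was 0.86 for Itga3 and Itgb1 and for Itga5 and Itgb1, 0.14 for Itgav and Itgb3, 0.77 for Lama3 and Lamb3 and 0.52 for Lama5 and Lamc1. With the channels the other way round these were, in the same order, 0.73, 0.63, 0.77, 0.41 and 0.43. The median r was 0.50 over the partner pairs and 0.33 over all 435 pairs of member genes, given as a description.

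The receptor of hemidesmosomes and the leukocyte receptors were among the same pairs. Itga6 and Itgb4 gave r = 0.59 (adjusted permutation p = 0.0505) and rho = 0.64 (0.0947). Itgb2 gave r = -0.06 with Itgam and -0.07 with Itgax. Paired arrays of 1 gene correlated over extracts at only 0.07 for Itgb2, -0.14 for Itgam and 0.29 for Itgax. These pairs therefore cannot show whether the subunits are ordered alike. The r of Itgb2 with Itgal was 0.59 (adjusted permutation p = 0.083), and 0.17 without 546-A and 548-A.

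**Figure D4:**
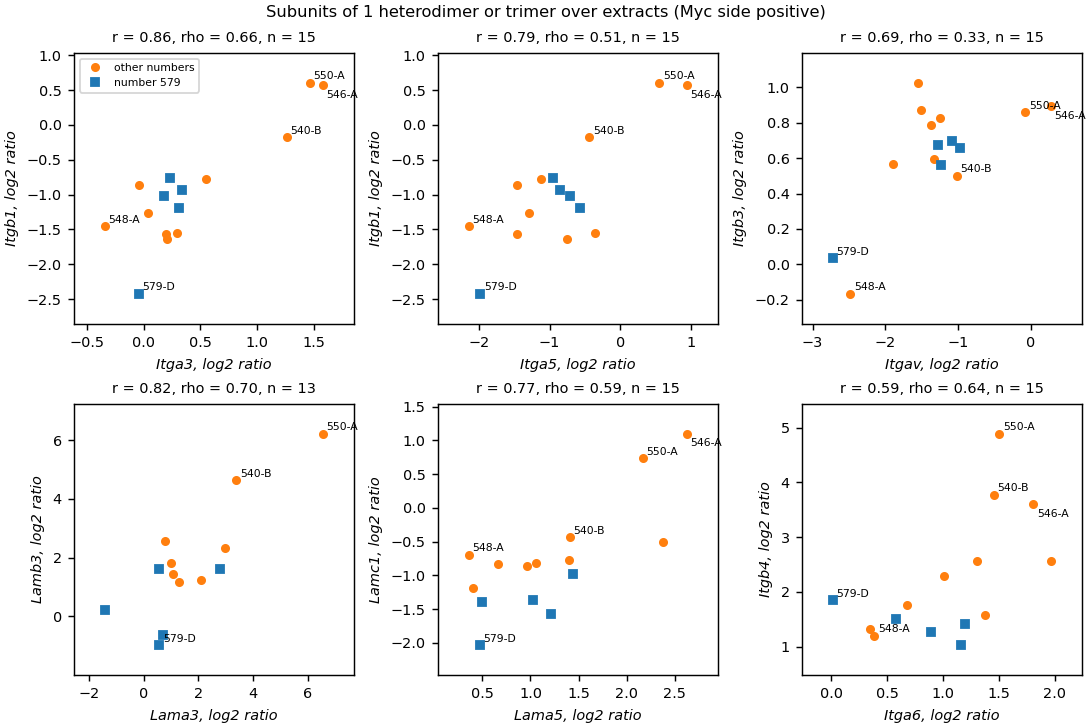
Log2 ratios of both subunits of 6 pairs, 1 point per extract (both axes Myc side positive), squares for number 579 and circles for other numbers, with Pearson's r, Spearman's rho and the number of extracts above each panel. In the panels of Itgb1 the points of 550-A and 546-A lie at the upper right, away from the other extracts, and that of 579-D at the bottom.

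Genes that integrins work with inside the cell were read from 18 adaptor and focal adhesion genes measured. Of these, 7 passed opposite to Myc, where 13.6% of all probes did, 4 passed on its side, where 23.0% did, and 7 did not pass, with a median of -0.23 against 0.10 over all probes. Cav1, which encodes the caveolar coat protein, stood at -3.21 ± 0.44, Zyx, the focal adhesion protein zyxin, at -1.39 ± 0.23 and Parvb, a partner of integrin-linked kinase, at -1.30 ± 0.16. Actn4, an actin crosslinker, was on the Myc side at 1.86 ± 0.13, with Tln1, the integrin activator talin, at 0.49 ± 0.14. Cav1 and Actn1 differed between extracts by the F-test, 2 of the 18 against 2.71% of all probes.

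Of 19 genes of hemidesmosomes and basement membranes measured, 7 passed opposite to Myc, where 13.6% of all probes did, 4 passed on its side, where 23.0% did, and 8 did not pass. Their median was 0.07, against 0.10 over all probes. The plaque proteins Dst (-1.27 ± 0.25) and Plec (-0.89 ± 0.16), which bind Itgb4, and the tetraspanin Cd151 (-1.73 ± 0.17), which binds laminin receptors, lay opposite to Itgb4. The collagen IV chains Col4a1 (1.17 ± 0.22) and Col4a2 (1.92 ± 0.23) lay on the Myc side, Col4a3 (-0.33 ± 0.10) and the linker Nid1 (-0.96 ± 0.24) lay on the opposite side, and Col4a5 (0.10 ± 0.16) did not pass. In the F-test 5 of the 19 differed between extracts, against 2.71% of all probes, among them Nid1 and Hspg2, the basement membrane proteoglycan.

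Integrin ligands other than laminins held many genes that differed between extracts. Of 22 measured, 11 passed the F-test between extracts, where 2.71% of all probes did. Against the reference 8 passed opposite to Myc, where 13.6% of all probes did, 5 passed on its side, where 23.0% did, and 9 did not pass, with a median of -0.06. Col1a1, Col1a2 and Col3a1, which passed the F-test between extracts, are also among the fibroblast and mesenchymal markers, and Cdh1 is among the luminal ones. Fn1, fibronectin, the ligand of the Itga5 and Itgb1 receptor, stood at -1.51 ± 0.19, and Vcam1, the ligand of Itga4, at -2.57 ± 0.37. Mfge8, a secreted ligand of Itgav receptors, stood at 1.74 ± 0.26, Postn, periostin, at 2.18 ± 0.35 and Cdh1, the epithelial cadherin, at 2.56 ± 0.34. Tnc, tenascin C, had a mean of 0.26 ± 0.55 and the largest SD over extracts of the list, 2.30.

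Number 579, the only number with more than 2 extracts, was set against the other numbers. In limma's test 0 of the 18923 probes passed (0.00% of members and of all probes), with 720 probes (3.80%) and 5 members at an unadjusted p under 0.05. Those members, Lamb3, Itgb4, Itga8, Itgb5 and Lamc1, were all lower in number 579, and 25 of 33 members had a negative difference. Lamb3 was -0.98 in 579-D, -0.63 in 579-E, 0.22 in 579-F and 1.61 in both 579-A and 579-B, against 1.18 to 6.22 in the others, so that the groups overlapped. The difference of Lamb3 was -2.18 ± 0.81 (limma adjusted p = 1.00). Itgb4 was 1.03, 1.42, 1.84, 1.51 and 1.27 in 579-A, 579-B, 579-D, 579-E and 579-F, against 1.20 to 4.89, a difference of -1.14 ± 0.52 (limma adjusted p = 1.00). Itga8 (-1.13 ± 0.47), Itgb5 (-1.07 ± 0.41) and Lamc1 (-1.04 ± 0.36) overlapped between the groups as well. The median difference was -0.30 over the members and -0.08 over all probes, or -0.15 and 0.03 with array medians subtracted. It depended on the orientation, at -0.72 over the members and -0.37 over all probes in channel 1 only and 0.05 and 0.19 in channel 2 only. With a single extract left out, the median over the members ran from -0.41 without 548-A to -0.17 without 579-D. The medians over all probes in these runs were -0.12 and -0.01. Over the members it was -0.20 without 546-A, -0.18 without 550-A and -0.39 without 579-E.

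The extracts labelled with tumour progression on both arrays, 550-A and 561-B, were set against the 12 extracts with the other description. In limma's test 0 of 18893 probes passed (0.00%), with 821 probes (4.35%) and 3 members at an unadjusted p under 0.05. Those members, Itgb4, Lama2 and Lama5, were higher in 550-A and 561-B, as were 29 of 33 members by the sign of the difference. Lama2 was 1.14 in 550-A and 1.65 in 561-B, against -1.22 to 0.96 in the 12 others. These ranges did not overlap, but how many of all probes are split likewise was not counted. The difference of Lama2 was 1.56 ± 0.47 (limma adjusted p = 0.873), and its paired arrays differed by a median of 1.89. Itgb4 was 4.89 and 2.56, against 1.03 to 3.77 (difference 1.84 ± 0.71), and Lama5 2.17 and 2.37, against 0.36 to 2.63 (difference 1.26 ± 0.47), both with overlap. The median difference was 0.58 over the members and 0.04 over all probes. It rested on which of the pair was kept: without 550-A the medians were 0.40 and 0.37, and without 561-B they were 1.03 and -0.29. The pair was not uniform: Lamb3 stood at 6.22 in 550-A and 1.43 in 561-B, and Itgb1 at 0.61 and -1.55.

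**Figure D5:**
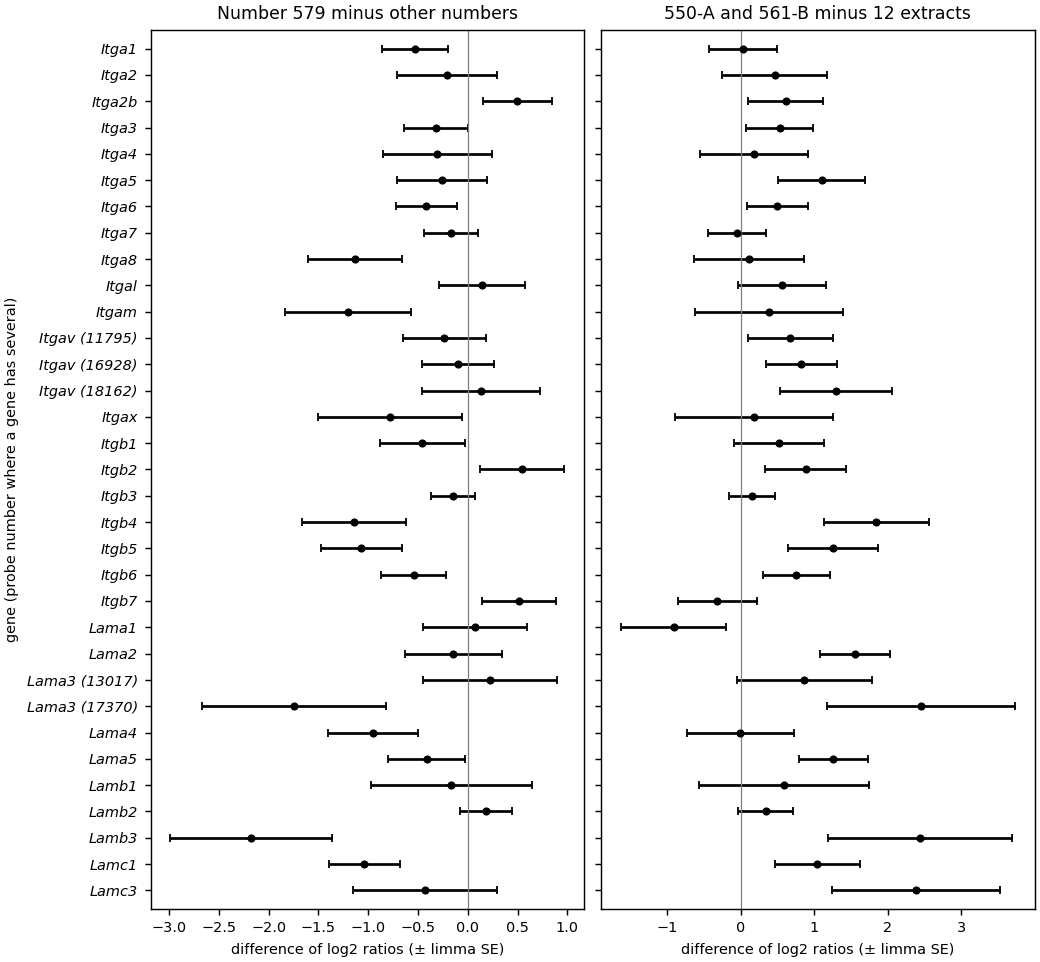
Difference of mean log2 ratios with limma's standard error (horizontal axes) for each member probe, for number 579 against the other numbers (left) and for 550-A and 561-B against 12 extracts (right). Most members lie below 0 on the left (25 of 33) and above 0 on the right (29 of 33), and no probe passed in either comparison.

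How far a value can be trusted differed between members. The median difference between paired arrays ran from 0.26 for Itga3 to 3.44 for Itga2, and paired arrays correlated over extracts above 0.5 for 11 members and below 0 for 12. In 9 members the orientations had opposite signs, 2 of them among the members that passed, Itga2 and Itga7. Of the others that passed, Itga1, Itga3, Itga8, Itgax and probe 17370 of Lama3 did not pass with the extract in channel 1 only (limma adjusted p from 0.0865 to 0.712), and Itga4, Itgb2 and Lamb2 did not in channel 2 only (limma adjusted p from 0.426 to 0.927). Over 50% of the values of 7 members were ratios of whole numbers up to 20, namely Itga2, Itgam, Itgax, Lama1, Lamc3, probe 18162 of Itgav and probe 13017 of Lama3. Intensities were not used here, so signal over background is unknown.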

How the data were processed

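Each of 15 RNA extracts of carcinomas was measured on 2 arrays with channels exchanged, against 1 reference RNA. The deposited table gives log2 ratios for 22800 probes, a scale read from the values; background correction, normalization, dyes, scanner and array build: not given in the sources used here. The value 16.61 and blanks were treated as missing, leaving 84.8% of the table. Arrays with the extract in channel 2 were turned: as deposited, different extracts correlated over probes at a median r of 0.498 in 1 orientation and -0.12 in opposite ones, and paired arrays from -0.371 to 0.0899. Both arrays of an extract were averaged, so an array missing for a probe leaves its dye effect in the mean.

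Extract means were tested against 0, and between groups, with limma 3.58.1 in R 4.3.3 over all 18923 probes with values on at least 20 arrays, Benjamini-Hochberg adjusted; variation of the reference, a single RNA, does not enter. Extracts were compared by nested least squares over the 30 arrays, a dye term per probe and limma's variance shrinkage, used in place of limma's own F because of missing values. On simulated data the test against the reference recovered 97% of changes of 1 log2 unit, and that of number 579 13%, or 95% of changes of 2. The test between extracts recovered 99% of the probes whose simulated extracts spread with an SD of 1 log2 unit. Array noise was set alike for all simulated probes and below that of many members, so these shares do not carry over to them. Full values went to members past the limit with every extract on 1 side, the 8 with the largest SD, those past the limit between extracts or groups, and laminin-332 chains and receptor subunits; of several probes, the one on most arrays stands for the gene. Other members are named with the receptors they belong to. Members and gene lists were chosen with earlier results of these data known. Symbols come from the platform annotation (16874 probes with 1 symbol, 134 with several, 5792 unlisted) and promoter windows from RefSeq. Alternatives changed the centring, the filters on probes, the extracts, the orientation, the dye term and the unit of replication.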

Additional observations from a re-analysis of the deposited data

Results flagged for a closer look

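Within number 579 and within the other numbers, each member was searched for an extract far from the rest of its group by Dixon's criterion. Such an extract was found in 10 of 66 groups, where unrelated values would give about 1 in 20. The members share these extracts and several moved together, so the groups are not independent and no excess can be read from this. The share over all probes was not counted. In number 579, extract 579-D lay below the other 4 for Itgb1 (-2.43, nearest -1.19), Itgav probe 11795 (-2.72, nearest -1.27), Itga5 (-1.98, nearest -0.95), Itga2 (-1.39, nearest 0.61) and Itgb3 (0.035, nearest 0.56). Among the other numbers, 548-A, an extract with few values, lay below the rest for Itgb7 (-3.31, nearest -2.05), Itgal (-2.68, nearest -0.83) and Itgb3 (-0.17, nearest 0.50). Lama3 in 550-A (6.55, nearest 3.38) lay above the rest on both arrays. Itga7 in 546-A (0.87, nearest -0.15) lay above the rest on the 1 array that measured it.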

How the results depend on the processing

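No paired analysis was possible because the labels give no replicate numbers shared between groups. Of 22 members past the limit against the reference, 20 to 22 passed with each extract left out in turn (Myc side 10 to 12, opposite side 9 to 11). The Myc side held 7 members under the stricter rule on arrays and 7 with the extract in channel 1 only, and the opposite side 6 in channel 2 only. Between extracts 3 members passed without 546-A and 548-A, and 3 to 6 with each array left out; with array medians subtracted Itga5 and probe 11795 of Itgav gave way to probe 16928 of Itgav and Lamb3, and without the dye term Lama3 did not pass. Partner pairs past the limit were 8 with array medians subtracted, 8 under the stricter rule (of 16 pairs), 3 with 1 value per code number, 0 without the 2 farthest extracts, and 3 with the first gene from channel 1 and the second from channel 2 or 7 the other way round, settings chosen after seeing the data. Both group comparisons held 0 members in every alternative run. Member means changed sign as follows. In channel 2 only, Itgal was 0.12, Itga2b 0.22, Itga7 0.0495, Lama2 0.59, Itgb5 -0.23 and Itgb6 -0.065. In channel 1 only, probe 13017 of Lama3 was -0.77, Itga2 -0.65 and Lama1 -1.18. Lama1 was also -0.081 with array medians subtracted, -0.027 with 1 value per code number and -0.12 to 0.10 with extracts left out, and Lama2 0.057 without 546-A and 548-A and -0.17 to 0.060 with extracts left out. Among pairs, r for Itga2b-Itgb3 was -0.37 without 546-A and 548-A, -0.34 without the 2 farthest extracts, and -0.26 and -0.65 over opposite channels. Itgal-Itgb2 was -0.19 with the first gene from channel 2. Itgam-Itgb2 was 0.034 without 546-A and 548-A, 0.0063 with 1 value per code number, 0.16 without the 2 farthest extracts, and 0.067 and 0.25 over opposite channels. Itgax-Itgb2 was 0.094 without 546-A and 548-A, 0.27 in channel 1 only, 0.061 with 1 value per code number and 0.035 without the 2 farthest extracts, and Itga4-Itgb7 was -0.058 in channel 1 only. The cause was not tested. The number of arrays limits the precision.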
